A study of Mus musculus with 3 samples.

Results

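The arrays carried 118 mismatch probes among 1491 probe identifiers. A mismatch probe is a capture oligo whose name equals that of a microRNA (miRNA) probe with the ending MM1 or MM2, read here as 1 or 2 bases changed against the miRNA. Each was paired with the perfect-match probe of the same name without the ending. There were 93 probes with 1 mismatch and 25 with 2 mismatches, for 88 miRNA names. Of the 118 probes, 115 had a perfect-match partner, which gave 117 pairs over 85 miRNAs and 65 families, because 2 miRNAs (miR-192 and miR-450) had 2 perfect-match probes each. In 15 names, 2 or 3 different mismatch probes shared the same name, so that pairs of these names share a perfect-match probe. The rest of the array was described only where a pair was set against it.

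The 3 samples were mouse CD4+CD8+ (double-positive) T cells on a Balb/c background, with 1 array each: ICN1 tumor cells, ICN1-expressing cells that were not malignant, and control thymocytes. ICN1 is the intracellular, active part of the receptor NOTCH1, and the first 2 samples carried it while the control did not. RNA of each sample carried the dye Hy3 and was hybridised together with a pool of all 3 samples, labelled with Hy5, which was the same RNA on every array. The labels do not say how ICN1 was introduced, how old the mice were or how many animals stand behind a sample, and with 1 array per sample no difference between samples has a replicate check.

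MiRNAs are short RNAs that bind messenger RNAs mainly through their seed, the bases near their 5′ end, and members of a family share that seed and often most of the other bases. On an array of this type, probes with locked nucleic acid (LNA) bases capture labelled miRNAs by base pairing. A mismatch probe measures how much signal a miRNA still gives when a base pair is broken, which is also the situation of a family member that meets a relative's probe. The let-7 family, which restrains growth genes such as those of the RAS family, and the miR-15/16 family, which represses the survival gene BCL2, are both abundant in lymphoid cells and both had several mismatch probes here.

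The probes carried human names, and the sequences below are the mouse mature miRNAs of the same names, from RefSeq (GRCm38.p6), written 5′ to 3′ with the seed (bases 2 to 8) in capitals. Of the 88 names, 50 matched a mature sequence. The letters of the probes themselves, and so the places of the mismatches, were not used here. Whether each perfect-match probe pairs with every base of the mouse miRNA of its name was not checked. The term perfect match thus follows the probe names alone, also where the mismatch probe was the brighter one. The let-7 members are shown because each differs from let-7a by 1 or 2 bases, the number by which a mismatch probe differs from its target:
let-7a: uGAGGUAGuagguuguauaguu
let-7c: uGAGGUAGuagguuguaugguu
let-7d: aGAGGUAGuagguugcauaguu
let-7f: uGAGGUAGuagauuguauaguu
let-7g: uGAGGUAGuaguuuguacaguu

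Counted from the 5′ end of the miRNA, let-7c differs from let-7a by A19G and let-7f differs from let-7a by G12A, which is 1 base in each case. The miRNA let-7d differs from let-7a by U1A and U16C, and let-7g by G12U and U18C. The mature let-7a shown lies at chr13:48538239-48538260 on the minus strand, in the gene Mirlet7a-1. On the same strand of that chromosome lie let-7d at chr13:48536078-48536099 and a copy of let-7f at chr13:48537889-48537910. The let-7g arm lies at chr9:106178846-106178867 on the plus strand, and a copy of let-7c at chr16:77599672-77599693 on the plus strand.

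The miR-15/16 family is shown because its ratios ran from −0.00142 (miR-16, non-malignant ICN1) up to 0.372 (miR-15a, ICN1 tumor):
miR-15a: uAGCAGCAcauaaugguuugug
miR-15b: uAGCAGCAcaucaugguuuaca
miR-16: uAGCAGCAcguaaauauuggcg

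These 3 share the seed AGCAGCA, and miR-15b differs from miR-15a by A12C, G20A, U21C and G22A. The miR-15b arm at chr3:69009775-69009796 and a copy of miR-16 at chr3:69009918-69009939 lie on the plus strand, and miR-15a at chr14:61632075-61632096 and the other miR-16 copy at chr14:61631936-61631957 lie on the minus strand.

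The last group holds miRNAs whose mismatch probes stood at either end of the range, namely miR-142-5p and miR-202, of which the miR-142-5p probe and 1 of the 2 miR-202 probes were nearly dark, and miR-125a, miR-144, miR-155 and miR-302b* with mismatch probes brighter than the perfect-match probe:
miR-142-5p: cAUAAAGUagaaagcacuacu
miR-202: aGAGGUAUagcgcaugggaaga
miR-125a: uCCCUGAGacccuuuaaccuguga
miR-144: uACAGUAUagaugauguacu
miR-155: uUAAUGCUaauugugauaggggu
miR-302b*: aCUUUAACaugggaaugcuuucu

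No seed was shared within this last group. Their positions are chr11:87756867-87756887 for miR-142-5p, chr7:139957695-139957716 for miR-202 on the minus strand, chr17:17830817-17830840 for miR-125a, chr11:78073047-78073066 for miR-144, chr16:84714143-84714165 for miR-155 and chr3:127545238-127545260 for miR-302b*, with all but miR-202 on the plus strand.

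Signals below are net Hy3 signals, the mean over up to 4 replicate spots of the spot's signal minus its local background, in the scanner's intensity units. The median local background was 70, 82 and 77 units on the ICN1 tumor, non-malignant ICN1 and control arrays. Net signals of the mismatch probes had a median of 18.2, 14.5 and 22.2 units on these arrays and reached 1186, 1614 and 1900 units. As a floor, 8 negative control probes reached 34.7, 31.6 and 40.0 units, and 40, 40 and 39 of the 118 mismatch probes were brighter than all of them. A pair entered the ratios on an array where at least 0.5 of the perfect-match probe's usable spots exceeded their local background by over 2 standard deviations of that background. By this rule 75, 74 and 80 of the 117 pairs passed on the 3 arrays, 66 passed on all of them, and 34 passed on none. The same threshold was met by 59, 52 and 61 of the 118 mismatch probes and by 60.5%, 53.2% and 57.9% of the other probes that are not controls. The T-lineage markers listed for a label check were above the threshold for 5 of 6 in ICN1 tumor cells and for 6 of 6 in the other samples, led by miR-142-3p.

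Most mismatch probes with 1 changed base kept only part of the perfect-match signal. Over the pairs that passed, the median ratio of mismatch to perfect-match signal was 0.372 on the ICN1 tumor array (61 pairs), 0.192 on the non-malignant ICN1 array (61 pairs) and 0.259 on the control array (64 pairs). The spread between miRNAs was wide, with interquartile ranges of 0.121 to 0.738, 0.0179 to 0.680 and 0.0437 to 0.726. In 14, 25 and 22 of these pairs the mismatch probe gave under 0.1 of the perfect-match signal, and in 10, 10 and 11 pairs it was the brighter probe. With 2 mismatches the medians were 0.294 (14 pairs), 0.129 (13 pairs) and 0.129 (16 pairs). These lie inside the 95% binomial intervals of the medians for 1 mismatch on the tumor array (0.259 to 0.497), the non-malignant array (0.0870 to 0.311) and the control array (0.117 to 0.419). The intervals treat the pairs as independent, although pairs share an array and some share a perfect-match probe, so they only describe the spread. The classes also hold in part different miRNAs. These medians therefore cannot tell whether the classes differ.

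The 1-mismatch median was lowest where the perfect-match probe was brightest. For 1 mismatch and a perfect-match signal of 500 units or more, the median ratio was 0.0906 over 11 pairs of the ICN1 tumor array, 0.0390 over 13 pairs of the non-malignant array and 0.0685 over 13 pairs of the control array. For perfect-match probes of 100 to 500 units it was 0.470 (6 pairs), 0.216 (13 pairs) and 0.136 (16 pairs), and for those under 100 units it was 0.404 (44 pairs), 0.263 (35 pairs) and 0.414 (35 pairs). On the tumor array the middle class was thus no lower than the dim class. In the dim class the median mismatch signal was 20.1, 17.4 and 28.8 units, which is within the range of the negative controls. Over all brightness classes, 35, 33 and 34 of the pairs with 1 mismatch had a mismatch probe no brighter than the brightest negative control. With 2 mismatches and a perfect-match signal of 500 units or more, the median was 0.147, 0.0776 and 0.0801 over 4 pairs, of which 3 belong to miR-16.

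Among miRNAs with a single mismatch probe, low ratios at bright targets were seen for let-7c and miR-142-5p. For let-7c, the mismatch probe gave 54.9, 95.9 and 166 units in ICN1 tumor, non-malignant ICN1 and control cells, against 2953, 6260 and 8996 units for the perfect-match probe. The ratio was 0.0186 ± 0.00127, 0.0153 ± 0.00101 and 0.0185 ± 0.000613 (SE over up to 4 spots, as for all ratios below). The tumor and control ratios differed by less than these errors and the non-malignant ratio was slightly lower, while the let-7c signal itself spanned a wide range. This held in Hy3 only. In Hy5, with the same pool on every array, the let-7c ratio was 0.0180 ± 0.00124, 0.0102 ± 0.000791 and 0.0111 ± 0.000581, higher on the tumor array than on the control array. The miRNA miR-142-5p is made by blood cells and was among the brightest targets of a mismatch probe. Its mismatch probe gave 17.0, 17.3 and 31.5 units, below the brightest negative control on every array, against 1469, 6819 and 8916 units for the perfect-match probe. The ratio was 0.0116 ± 0.00108, 0.00254 ± 0.000550 and 0.00354 ± 0.000247.

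In all, 9 pairs had a ratio of at most 0.05 on each of the 3 arrays. Besides let-7c and miR-142-5p, these were 2 of the 2-mismatch probes of miR-16 and 1 probe each of miR-15b, miR-202, miR-208, miR-301 and miR-34c. The perfect-match probes of miR-208, a heart-muscle miRNA, and of miR-34c, a target of p53, gave at most 39.0 and 79.3 units on any array, so their low ratios rest on dim probes. The perfect-match probe of miR-301 gave 34.6, 66.2 and 158 units, while its 3 mismatch probes all stayed at or below 9.99 units.

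Several names had mismatch probes with the same number of mismatches whose ratios differed by far more than their spot error. For let-7a, 3 probes with 1 mismatch shared a perfect-match probe that gave 1805, 6002 and 9229 units in ICN1 tumor, non-malignant ICN1 and control cells. The first (probe 17334) gave 532, 1157 and 1865 units, with ratios of 0.295 ± 0.00995, 0.193 ± 0.0112 and 0.202 ± 0.00307. The second (probe 17687) had ratios of 0.0906 ± 0.00295, 0.0390 ± 0.00183 and 0.0442 ± 0.00108. The third (probe 17686) had ratios of 0.0843 ± 0.00339, 0.0276 ± 0.00147 and 0.0310 ± 0.00129. The order of the 3 probes was the same on all arrays, with the first well above the others, which lay close to each other in tumor cells.

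The miR-16 probes showed the same split among probes with 2 mismatches. Probe 17722 gave 246, 639 and 1036 units in ICN1 tumor, non-malignant ICN1 and control cells, against 859, 4183 and 6516 units for the perfect-match probe, and its ratio was 0.286 ± 0.0118, 0.153 ± 0.0123 and 0.159 ± 0.00339. The other 2-mismatch probes stayed at the floor. Probe 17549 gave 5.86, 9.89 and 8.79 units, and probe 17496 gave 1.09, −5.95 and −0.452 units. The miR-16 probe with 1 mismatch (probe 17713) lay just below the brightest of the 2-mismatch probes, with ratios of 0.259 ± 0.00853, 0.138 ± 0.00826 and 0.143 ± 0.00352. The count of mismatches in the name thus did not order these 4 probes.

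Further names behaved alike. For miR-202, a miRNA best known from germ cells, probe 17747 gave 525, 770 and 769 units against 914, 1132 and 1056 units for the perfect-match probe, a ratio of 0.574 ± 0.0516, 0.680 ± 0.0527 and 0.728 ± 0.0574. The other miR-202 probe with 1 mismatch (probe 11207) gave 5.61, −2.85 and 0.717 units. For miR-15b, probe 17279 had ratios of 0.0941 ± 0.00318, 0.0670 ± 0.00333 and 0.0685 ± 0.00142, while probe 17318 had 0.0313 ± 0.00196, 0.00956 ± 0.000542 and 0.00964 ± 0.00123. For miR-27b, probe 17742 had ratios of 0.644 ± 0.0260, 0.522 ± 0.0212 and 0.571 ± 0.0156, and probe 17704 had 0.0965 ± 0.0176, 0.00315 ± 0.00247 and 0.0239 ± 0.000946.

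In 9 pairs of 8 miRNAs the mismatch probe was brighter than the perfect-match probe on all 3 arrays. The let-7f pair was the example within a family. Its mismatch probe gave 208, 202 and 353 units in ICN1 tumor, non-malignant ICN1 and control cells, against 47.5, 53.2 and 93.3 units for the perfect-match probe, a ratio of 4.37 ± 0.339, 3.80 ± 0.271 and 3.79 ± 0.108. The let-7f perfect-match probe was thus far dimmer than those of let-7a and let-7c, whose mature sequences differ from let-7f by the few bases given above. For miR-125a, a blood stem-cell miRNA, the mismatch probe gave 889, 1237 and 1900 units against 511, 1104 and 1343 units, a ratio of 1.74 ± 0.150, 1.12 ± 0.0614 and 1.41 ± 0.388. On the control array this excess over 1 was about as large as its spot error.

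For miR-144, which is made with miR-451 in red-cell precursors, the mismatch probe gave 83.1, 851 and 300 units against 31.6, 147 and 89.1 units, a ratio of 2.63 ± 0.139, 5.78 ± 0.483 and 3.36 ± 0.0477. This ratio also differed between the arrays beyond its spot error. In Hy5, with the same pool on every array, the miR-144 ratio was 3.41 ± 0.152, 7.55 ± 0.953 and 6.06 ± 0.224, so it differed there too. For miR-155, which lymphocytes need for their immune function, the mismatch probe gave 102, 148 and 222.0 units against 51.1, 88.3 and 158 units, a ratio of 1.995 ± 0.0624, 1.67 ± 0.0735 and 1.41 ± 0.0260. For miR-198, which has no mouse sequence in the table used, the 2-mismatch probe gave 1186, 1614 and 1832 units against 690, 1146 and 1204 units, a ratio of 1.72 ± 0.210, 1.41 ± 0.0607 and 1.52 ± 0.0843. The remaining pairs above 1 were miR-101, with ratios of 2.04, 1.77 and 2.28, miR-10a, with 1.54, 1.29 and 1.33, and both pairs of miR-197. The miR-10a values were not brighter than all negative controls on any array.

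The highest ratios of all belonged to probes whose perfect-match partner was barely above the threshold. The 1-mismatch probe of miR-302b*, from a cluster active in embryonic stem cells, gave 805 ± 95.6 units in ICN1 tumor cells and 1397 ± 39.6 units in control cells, against 24.06 and 24.96 units for the perfect-match probe, and ratios of 33.4 and 56.0. Its 2-mismatch probe gave 0.882 and −2.91 units on the same arrays. A 2-mismatch probe of miR-92b (probe 14407) gave 382 units in tumor cells and 573 units in control cells against perfect-match signals of 23.3 and 24.2 units, ratios of 16.4 and 23.7. The other 2-mismatch probe of miR-92b (probe 13535) had ratios of 1.06 and 0.884. On the non-malignant array neither perfect-match probe passed.

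Where a miRNA had probes of both classes, the mean signal of the 2-mismatch probes was below that of the 1-mismatch probes in 4 of 6 miRNAs on the ICN1 tumor array, 4 of 5 on the non-malignant array and 6 of 7 on the control array. The exception on all 3 arrays was miR-197, where the 2-mismatch probe gave 104, 136 and 171 units against 48.9, 53.6 and 51.4 units for the 1-mismatch probe. By these means the miR-27b probes were a further exception in tumor cells, where the 2-mismatch probe gave 35.2 units and the 1-mismatch probes averaged 25.2 units. That average joins 43.9 units for probe 17742 and 6.57 units for probe 17704, so the 2-mismatch probe lay between them, close to the negative controls. Conversely, miR-16 counts as dimmer by its mean, although its 2-mismatch probe 17722 was brighter than its 1-mismatch probe on all 3 arrays. For let-7g the 2-mismatch ratio was 0.302, 0.129 and 0.0997, against 0.484, 0.216 and 0.230 with 1 mismatch. For miR-31 the 2-mismatch probe gave −1.17 units in non-malignant cells and 3.45 units in control cells, against a mean of 30.2 and 33.1 units over its 1-mismatch probes. Those means join a bright and a dark probe, with 61.5 and −1.08 units in non-malignant cells and 64.8 and 1.54 units in control cells. The 2-mismatch probe was thus about as dim as the darker of these, and brighter than it in control cells.

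By family, the 7 let-7 pairs with 1 mismatch (5 miRNAs) had a median ratio of 0.295, 0.193 and 0.202 on the ICN1 tumor, non-malignant ICN1 and control arrays. All 7 mismatch probes were brighter than every negative control on each array. Their ratios ran from 0.0185 for let-7c to 3.79 for let-7f in control cells. For let-7d the mismatch probe nearly matched the perfect-match probe on the tumor array but not on the others, with 208, 312 and 460 units against 212, 425 and 697 units and ratios of 0.982 ± 0.0540, 0.735 ± 0.0508 and 0.660 ± 0.0157. In Hy5, with the same pool on every array, the let-7d ratio was 0.868, 0.767 and 0.772, also highest on the tumor array. For let-7g, the 1-mismatch probe gave 65.1, 56.3 and 87.3 units against 135, 260 and 380 units.

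The 4 pairs of the miR-15/16 family with 1 mismatch had a median of 0.177, 0.103 and 0.106. Its dimmest member was miR-15a, with a perfect-match signal of 81.2, 133 and 210 units and ratios of 0.372 ± 0.0269, 0.248 ± 0.0137 and 0.193 ± 0.00692. On the tumor array the miR-15a mismatch probe gave 30.2 units, below the brightest negative control. In the miR-30 family, miR-30c had ratios of 0.456 ± 0.0123, 0.300 ± 0.0150 and 0.376 ± 0.0400, and miR-30d, with a perfect-match signal of 26.5, 64.3 and 90.8 units, had 0.378, 0.0870 and 0.0744. For miR-18a of the MYC-induced miR-17-92 cluster, the 1-mismatch ratio was 0.325, 0.137 and 0.127, and the 2-mismatch ratio of miR-18b was 0.116, 0.0371 and 0.0390. The miR-18a mismatch signal itself was nearly flat, at 44.5, 38.7 and 41.9 units, while the perfect-match signal was 137, 284 and 331 units.

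Most mismatch signals of the next families lay near the negative controls, apart from miR-202 probe 17747 described above. The pair of miR-148a had ratios of 0.733, 0.652 and 0.570, and that of miR-148b 0.738, 0.344 and 0.409, with mismatch signals between 30.2 and 39.2 units. For miR-146b the ratio was 0.720 in non-malignant and 0.758 in control cells, while the 2-mismatch ratio of miR-146a, an inhibitor of inflammatory signalling, was 0.111, −0.0389 and −0.0211. The 5 pairs of the family of miR-34 and miR-449 had medians of 0.187, 0.0751 and 0.117, and in 1 of them, on the control array, the mismatch probe was brighter than every negative control. The 4 pairs of miR-202 and miR-202* had medians of 0.356, 0.301 and 0.309.

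The ratio was higher in ICN1 tumor cells than in control cells for most pairs with local background subtracted. Once the negative controls were subtracted too, the majority was narrow and the order of the medians was reversed. Among the 56 pairs with 1 mismatch that passed on all 3 arrays, it was higher on the tumor array in 48 and lower in 8. The medians of these pairs were 0.367 in tumor and 0.203 in control cells. Against non-malignant ICN1 cells the tumor ratio was higher in 49 of 56 pairs. The non-malignant ratio was higher than the control ratio in 17 of 56 pairs. With the mismatch probe brighter than all negative controls on both arrays, the tumor ratio was higher than the control ratio in 19 of 23 pairs. The medians of these pairs were close, at 0.574 and 0.571, but medians over pairs do not show the change within each pair. With the mean of each array's negative controls also subtracted, an alternative chosen after seeing the data, the tumor ratio was higher than the control ratio in 31 of 56 pairs and lower in 25, and the medians turned to 0.0987 in tumor and 0.134 in control cells. Against non-malignant cells the tumor ratio was then higher in 32 of 56 pairs, and the non-malignant ratio exceeded the control ratio in 19 of 56. No test was made, since the pairs of an array share its hybridisation.

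The pool channel shows the same ratio for RNA that did not differ between arrays. In 19 pairs of 16 miRNAs the mismatch probe was brighter than every negative control in both dyes on all arrays, and their Hy3 ratio over their Hy5 ratio had a median of 1.03 on the tumor, 1.06 on the non-malignant and 1.04 on the control array. Single values ran from 0.554 for miR-144 on the control array to 3.56 for let-7g on the non-malignant array. Over all pairs whose perfect-match probe passed in Hy5, with mismatch signals often below local background, the 1-mismatch medians were 0.0731, 0.0102 and 0.0564 in Hy5. In Hy3 the ratio was higher in ICN1 tumor than in control cells in 17 of 19 pairs, by a median factor of 1.23. In Hy5, where the same pool was hybridised, it was higher on the tumor array than on the control array in 16 of 19 pairs, by a median factor of 1.32. Between the non-malignant and control arrays the median factors were 0.954 in Hy3 and 0.927 in Hy5. A difference of this size in the ratio was thus also measured where the hybridised RNA was the same.

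Single pairs showed this in both dyes. For let-7a probe 17334, the Hy5 ratio was 0.295, 0.182 and 0.196 on the ICN1 tumor, non-malignant ICN1 and control arrays, beside the Hy3 ratios of 0.295, 0.193 and 0.202. For miR-16 probe 17713, the Hy5 ratio was 0.258, 0.139 and 0.147, beside Hy3 ratios of 0.259, 0.138 and 0.143. Over the 19 pairs, the pool's perfect-match signal on the tumor array was below that on the control array in 16, with a median of 0.649 of its level there. The pool's mismatch signal was below in 9 of 19, with a median of 1.06 of its level on the control array. For let-7a the pool's perfect-match signal was 3517, 5765 and 5898 units on the 3 arrays, while the pool's signal on mismatch probe 17334 was 1036, 1052 and 1155 units.

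Differences between samples were also read from the mismatch probes themselves, as the normalised log2 ratio of sample to pool on 1 array minus that on another, where ± is the standard error over spots. In these whole-RNA samples, fewer cells of a type and less of a miRNA per cell cannot be told apart. Between ICN1 tumor and control cells, 7 of 65 mismatch probes lay 2-fold or more below control and 0 lay as far above it. Among the 845 other probes of this comparison, 4.62% lay 2-fold or more below and 1.18% as far above. The 7 were 2 probes each of let-7a and miR-16 and 1 probe each of miR-15b, miR-30c and miR-144, and the perfect-match probes of all 7 lay 2-fold or more below control too, so the 7 are not independent of these. The median difference was −0.05 over the mismatch probes and 0.02 over the other probes.

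For miR-16, mismatch probes 17713 and 17722 differed by −1.80 ± 0.011 and −1.81 ± 0.014 between tumor and control cells, and the perfect-match probe by −2.08 ± 0.0069. For let-7a, probes 17334, 17687 and 17686 differed by −1.38 ± 0.0057, −1.14 ± 0.011 and −0.88 ± 0.030, and the perfect-match probe by −1.45 ± 0.013. The order followed the brightness of the mismatch probe, and each difference was smaller in size than that of the perfect-match probe. For miR-15b, probe 17279 differed by −1.38 ± 0.024 and the dimmer probe 17318 by −0.28 ± 0.049, against −2.06 ± 0.0075 for the perfect-match probe. The miR-30c probes differed by −1.005 ± 0.0098 with the mismatch and −1.06 ± 0.010 with the perfect match.

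The miR-142-5p mismatch probe, which lay below the brightest negative control, differed by −0.55 ± 0.034 between tumor and control cells, against −1.78 ± 0.010 for the perfect-match probe. Of the 12 pairs with a perfect-match difference of at least 2-fold, 10 had a mismatch probe brighter than all negative controls on both arrays, and in 7 of these the mismatch probe also reached 2-fold. In the 2 pairs without such a mismatch probe it did not. Over the 29 pairs with a mismatch probe above that floor, the mismatch and perfect-match differences had a Spearman correlation of 0.90, and over the 26 pairs below it 0.41. These are descriptions, since the pairs share arrays, labelling and in part perfect-match probes.

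Between non-malignant ICN1 and control cells, 1 of 61 mismatch probes lay 2-fold or more above control in non-malignant cells and 0 as far below. Among the 789 other probes, 0.887% lay 2-fold or more above and 0.760% as far below. The probe was that of miR-144, with a difference of 1.55 ± 0.014, while the perfect-match probe differed by 0.72 ± 0.020. Conversely, miR-449 and miR-449b, whose perfect-match probes differed by 1.53 ± 0.017 and 1.44 ± 0.035, had mismatch probes near the floor that differed by 0.04 ± 0.020 and −0.22 ± 0.035. No pair reached 2-fold with both of its probes.

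Between ICN1 tumor and non-malignant ICN1 cells, 4 of 61 mismatch probes lay 2-fold or more below in tumor cells and 0 as far above. Among the 840 other probes, 2.74% lay 2-fold or more below and 0.833% as far above. The 4 mismatch probes were those of miR-144 (−2.77 ± 0.014, against −1.74 ± 0.0068 for the perfect match), miR-15b probe 17279 (−1.08 ± 0.024, against −1.65 ± 0.014) and miR-16 probes 17713 and 17722 (−1.37 ± 0.014 and −1.39 ± 0.015, against −1.64 ± 0.0059). For miR-144 the mismatch probe showed the larger difference in all 3 comparisons, including −1.22 ± 0.010 against −1.02 ± 0.020 between tumor and control cells. Beside these values, 3 of 3 erythroid marker miRNAs were above the threshold on every array, and their summed signal was 642 units in ICN1 tumor, 11753 units in non-malignant ICN1 and 24002 units in control cells, of which miR-451 gave 505, 11409 and 23628 units. These markers include miR-144 itself. In non-malignant cells miR-451 was below its control value, while the perfect-match and mismatch probes of miR-144 were above theirs. The part of red-cell precursors in the miR-144 values was not tested.

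At the threshold itself, the perfect-match probes just above it on the tumor array were those of miR-139 and miR-10a, with 19.8 and 20.7 net units and ratios of 1.02 and 1.54. Just below it were miR-189 and miR-150, with 17.8 and 18.7 net units and ratios of 1.38 and 0.441. On the non-malignant array the nearest pairs above were miR-10a and miR-424, with ratios of 1.29 and 0.882, and those below were miR-92 and miR-151, with −0.113 and 0.134. On the control array the nearest above were miR-302b* and miR-10a, with 56.0 and 1.33, and those below were miR-139 and miR-151, with 1.08 and 0.676.

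Among the 34 pairs that passed on no array were mismatch probes with clear signal of their own. The mismatch probe of miR-17-3p, the opposite arm of miR-17, gave 215 ± 7.41, 398 ± 31.9 and 425 ± 13.1 units in ICN1 tumor, non-malignant ICN1 and control cells, against 8.96, 0.686 and 6.30 units for its perfect-match probe. The mismatch probe of miR-330 gave 85.7, 82.1 and 91.6 units and that of miR-345 gave 48.3, 97.9 and 91.6 units, while their perfect-match probes stayed at or below 14.6 units. Together with that of miR-450, these were all the mismatch probes of such pairs that were brighter than every negative control on all 3 arrays, and they were chosen after their values were seen.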

How the data were processed

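Exiqon miRCURY LNA arrays with 2 colours were used for 3 samples, 1 array each, with the sample in Hy3 and the pool in Hy5, per the labels. The deposited scanner tables hold each spot's signal and background as a linear intensity without normalization, per the file headers, and a quality flag, a score given by the authors. The labels name no scanner or image software. The authors' table of processed values was not used.

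Each array had 6720 spots for 1491 probe identifiers, most in 4 spots. Spots with flag 3 were left out (51, 125 and 72 spots on the ICN1 tumor, non-malignant ICN1 and control arrays, of which 4, 6 and 5 were mismatch spots). Net signal was the mean over spots of signal mean minus background median, and no member was saturated. The ratio of mismatch over perfect match carries a delta-method standard error from the spots, which covers spot error, not animals. Probes near the floor limit the precision, as does the number of arrays. For differences between arrays, log2(Hy3/Hy5) was computed after normexp (offset 50) and global loess in limma 3.58.1 (R 4.3.3), in which control spots and mismatch probes had weight 0, for probes above the threshold on at least 1 of the 2 arrays; the offset makes differences of dim probes smaller. Other steps used Python 3.11.15, pandas 2.3.3 and numpy 2.4.6. The ratio calculation was run on simulated spots, with perfect-match levels drawn from probes above 100 units and no floor signal. That check does not cover ratios of dim pairs.

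With 1 array per group no test was made and no p-value is given. The members, families and lists were chosen with earlier results of these data known. Pairs were named by these rules: the 5 highest and 5 lowest ratios per array and number of mismatches, families with at least 2 miRNAs, the 2 pairs on each side of the threshold, ratios of at least 0.5 or at most 0.05 on all 3 arrays, and miRNAs whose 2-mismatch probe was brighter than the 1-mismatch probe on all 3 arrays. Probes named for their share of a name, for probes of both classes or for a 2-fold difference were chosen after their values were seen. Alternatives covered the dye, the background, the threshold, the flags, the let-7 family and the normalization.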

Additional observations from a re-analysis of the deposited data

Results flagged for a closer look

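Signal was present in mismatch probes that no ratio used. The miR-7 mismatch probe has no perfect-match probe on the array and gave 86.8 ± 0.476 units in ICN1 tumor cells, 77.4 ± 1.27 units in non-malignant ICN1 cells and 82.4 ± 1.47 units in control cells, above every negative control on each array. It is listed because its tumor value lay above that of the control array by more than the spot error, although by only a few units. The miR-450 mismatch probe, whose 2 perfect-match probes passed on no array, gave 66.2 ± 0.273, 58.8 ± 1.34 and 62.6 ± 0.557 units in the same order and is listed for the same reason. Differences this small between single arrays have no replicate check.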

How the results depend on the processing

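Values below are for the ICN1 tumor, non-malignant ICN1 and control arrays. The background treatment moved the 1-mismatch median beyond the 95% interval of the reported one: without background subtraction it was 0.735, 0.612 and 0.643, and with normexp 0.678, 0.539 and 0.598, since a constant is then left in both probes. With the mean of the negative controls subtracted, an alternative chosen after seeing the data, it was 0.111, 0.0626 and 0.171, which puts tumor below control, and the pairs with a higher ratio in tumor than in control cells were 31 of 56 in place of 48. In the Hy5 channel it was 0.0731, 0.0102 and 0.0564, and with 2 mismatches −0.0323, −0.0341 and −0.0557. There many net signals lay below 0, as did the mean of the negative controls. With perfect-match signals of at least 500 units the 1-mismatch median was 0.0906, 0.0390 and 0.0685. The count of miRNAs with dimmer 2-mismatch probes then fell to 1, 1 and 1, because only miR-16 was left. It was 2 of 4 in tumor cells with a threshold of 3 background standard deviations. With pairs above background on all 3 arrays it was 2 of 4 in tumor and 3 of 4 in control cells. With no threshold it was 9 of 11 in non-malignant cells, against 4 of 5 as reported. In part these counts moved with the number of miRNAs that qualified. Signal medians, all spots kept and leaving out let-7 moved none of these medians and counts, 1 value per miRNA (run for the medians alone) moved no median, and other normalization of the array differences moved no count by over 1.5 times. Of the single ratios of named pairs, 152 moved beyond their spot error without background subtraction and 22 did not. With normexp 148 moved, with signal medians 40 and with all spots kept 1, and in Hy5 85 moved while 30 did not. The signal over background limits all ratios of dim pairs. No paired analysis was possible because each group has 1 array.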

Other observations

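The mismatch probes of miR-133a, a muscle miRNA, and miR-802 have no perfect-match probe on the array. The miR-133a probe gave 5.84 units in ICN1 tumor cells, 2.63 units in non-malignant ICN1 cells and 5.59 units in control cells, and the miR-802 probe gave −4.74, −9.57 and −8.30 units. Neither was above its threshold on any array.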
